A study of Mus musculus with 4 samples.

Results

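The 10 genes described here encode enzymes of sphingolipid and ceramide synthesis in the mouse. They are Sptlc1, Sptlc2, Cers2, Cers4, Cers5, Cers6, Sgms1, Sgms2, Smpd1 and Ugcg, of 21631 protein-coding genes compared. Their regions were the accessible regions that overlap the annotated gene body or 10 kb on either side. This gave 100 of the 90270 joint regions of the series, where a joint region merges peaks of the 4 libraries that overlap by at least 1 bp. The genes were chosen by measured values of these same libraries, namely in which lists their peaks stood, the deposited folds and the −log10 q values, and Sgms1 was selected on its many regions called in naive cells. All values below are therefore a description of these libraries and not a test.

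Chromatin accessibility was measured by ATAC-seq, in which the Tn5 transposase cuts and tags open DNA. The cells were untreated primary mouse cells of 2 kinds. DN3 thymocytes, which are T cell precursors that do not yet carry CD4 or CD8, were taken from the thymus by magnetic depletion and a flow sort for cells with CD25 and without CD44, CD4, CD8 or lineage markers. Naive CD4 T cells, mature helper T cells that no antigen has yet activated, were isolated from spleens with magnetic beads. The 4 groups were DN3 thymocytes of littermate controls, DN3 thymocytes of SCD1 deficient mice, naive CD4 T cells of littermate controls and naive CD4 T cells of SCD1 deficient mice. Scd1 encodes a stearoyl-CoA desaturase, which makes monounsaturated fatty acids. The labels mark the controls HZ and do not explain it, and give neither the ages, the number of animals per library nor the deleted part of Scd1. Each group held 1 library, so the values are set side by side, with no test and no p-value.

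Sphingolipid synthesis begins in the endoplasmic reticulum, where serine palmitoyltransferase joins serine to palmitoyl-CoA and ceramide synthases attach a further fatty acid to the resulting base. Ceramide then leads to sphingomyelin or to glucosylceramide, and sphingomyelinases release it again from sphingomyelin. In T cells these lipids are parts of the plasma membrane domains in which the antigen receptor signals, and ceramide and sphingosine 1-phosphate act as signals themselves.

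The lists held 76814 peaks in the DN3 control, 76437 in the DN3 knockout, 46576 in the naive control and 51297 in the naive knockout on chromosomes 1 to 19 and X. The total number of reads is not known here. Each library's genome-wide background pileup, which rises with depth and follows from the deposited peak statistics, was 4.72, 4.47, 5.12 and 3.65 fragments in the same order, so the naive knockout was the shallowest by this measure. No list held a peak with fewer than 13, 12, 14 and 11 fragments at its summit, and a region missing from a list may still have held fragments below that. Of 7 markers fixed for DN3 thymocytes, 7 had a start-site region, meaning a peak within 1 kb of an annotated start, in each DN3 list and 3 in each naive list. Ptcra, Rag1, Rag2 and Dntt were called in the DN3 lists alone. All 7 markers of naive CD4 T cells were called in all 4 lists, Cd4 itself with folds of 6.14 and 6.33 in the DN3 lists and 9.74 and 9.02 in the naive lists. Of 4 B cell markers, 2 were called in each DN3 list and 1 in each naive list, with Ms4a1 called in none. Ebf1 was called in all 4 lists, with folds of 10.3, 10.1, 5.97 and 7.94. Of 5 myeloid markers 3 were called in each list, and Csf1r in none. Scd1 had a region at a gene end in all 4 lists, with folds of 9.41, 8.86, 6.69 and 6.37, which does not check the genotype.

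Of the 100 joint regions, 51 were called in all 4 lists, 15 in both DN3 lists and neither naive list, 14 in both naive lists and neither DN3 list, and 20 in another pattern. Over all 68326 joint regions near protein-coding genes these patterns held 44.2%, 26.6% and 4.77% of regions. The 14% called in naive cells alone includes Sgms1, which was selected on such regions, so it is no test against the 4.77%. The naive-only regions belonged to 2 genes, with 12 at Sgms1 and 2 at Ugcg. DN3-only regions were spread over 8 genes, all but Cers4 and Ugcg. Without Sgms1, the other 9 genes had 56 regions, of which 28 were called in all 4 lists, 13 in DN3 cells alone (23.2%) and 2 in naive cells alone (3.57%). The split depends on list length. With each list kept to its 46576 strongest peaks, 28 of 79 member regions were naive-only and 5 DN3-only, beside 13.8% and 14.9% over all regions near genes.

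**Figure D1:**
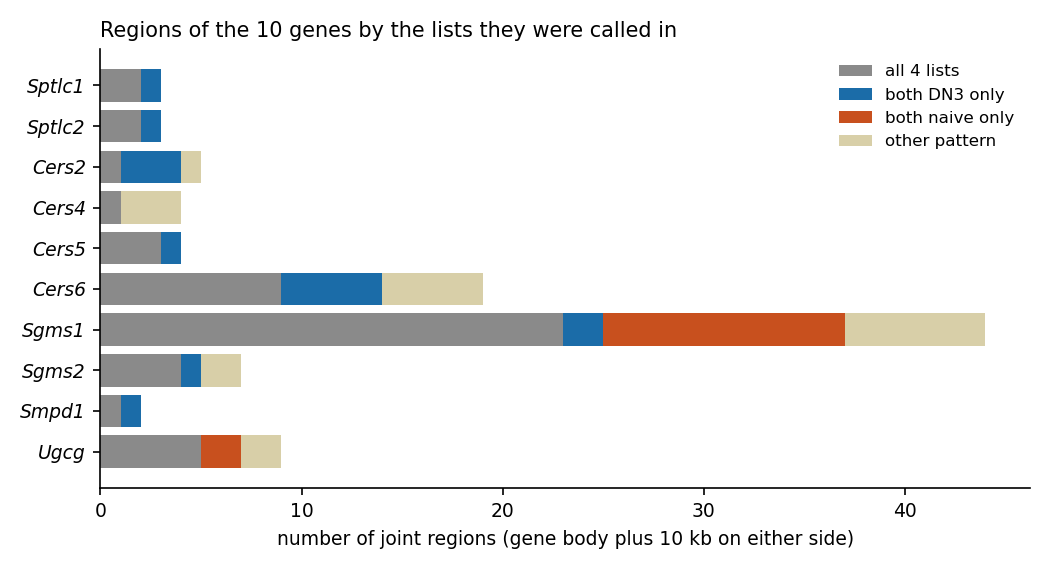
Number of joint regions (x axis) of each of the 10 genes (y axis), coloured by the lists they were called in. Sgms1 has 44 regions, of which 12 were called in both naive lists only, and Cers6 has 19 with none of that kind.

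The start sites of the genes were open in nearly every library. A start-site region was called at 10 of the 10 genes in the DN3 control, the DN3 knockout and the naive knockout, and at 9 of 10 in the naive control. Over all protein-coding genes the shares were 66.7%, 66.4%, 57.2% and 58.8% in the DN3 control, DN3 knockout, naive control and naive knockout. Sgms2 was the gene without a start-site region in the naive control. RefSeq (GRCm38.p6, the assembly of mm10) annotates 19 starts of these genes. Of these, 11 were covered by a peak in all 4 lists, 3 in some lists and 5 in none. Of all 21045 starts, 51.5% were covered in all 4 lists and 38.6% in none. The 250 bases upstream of the 11 starts held 8 to 43 CpG dinucleotides, and those of the 5 uncovered starts held 1 to 5. Over all 21045 starts the median was 17 CpG at starts covered in all 4 lists and 2 at starts covered in none.

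The upstream sequences of 4 starts are shown because the results turn on them: the start with the highest fold in each list (Sptlc1), both kinds of covered start of Sgms1, and the outermost covered start of Sgms2, in a region whose call differed between libraries. Each is given 5′ to 3′ on the minus strand of mm10, from RefSeq GRCm38.p6, and ends next to the start. The coordinates are chr13:53377362-53377611 for Sptlc1, chr19:32388513-32388762 for the first start of Sgms1, chr19:32211014-32211263 for its internal start and chr3:131490661-131490910 for Sgms2. Capitals mark matches on either strand to 8 short motifs, namely the ETS core CCGGAAG, the CCAAT box CCAAT, the GC box GGGCGG, the E-box CACGTG, the RUNX motif TGTGGT, and parts of a sterol element (TCACCCC), the NRF1 motif (GCGCATG) and the YY1 motif (ATGGCGG).
Sptlc1: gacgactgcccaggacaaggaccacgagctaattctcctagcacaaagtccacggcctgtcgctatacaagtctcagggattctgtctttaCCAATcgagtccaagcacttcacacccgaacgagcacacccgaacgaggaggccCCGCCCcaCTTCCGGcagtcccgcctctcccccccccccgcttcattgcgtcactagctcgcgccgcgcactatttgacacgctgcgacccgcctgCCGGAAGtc
Sgms1, first start: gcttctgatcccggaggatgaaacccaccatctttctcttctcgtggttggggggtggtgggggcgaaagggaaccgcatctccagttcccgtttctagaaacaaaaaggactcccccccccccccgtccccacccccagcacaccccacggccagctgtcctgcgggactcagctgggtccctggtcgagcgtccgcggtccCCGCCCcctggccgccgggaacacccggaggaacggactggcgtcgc
Sgms1, internal start: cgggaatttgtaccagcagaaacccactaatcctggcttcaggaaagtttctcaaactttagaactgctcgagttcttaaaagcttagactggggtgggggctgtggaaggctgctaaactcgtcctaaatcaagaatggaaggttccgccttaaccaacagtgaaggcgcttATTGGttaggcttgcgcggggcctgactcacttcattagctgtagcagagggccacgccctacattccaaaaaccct
Sgms2: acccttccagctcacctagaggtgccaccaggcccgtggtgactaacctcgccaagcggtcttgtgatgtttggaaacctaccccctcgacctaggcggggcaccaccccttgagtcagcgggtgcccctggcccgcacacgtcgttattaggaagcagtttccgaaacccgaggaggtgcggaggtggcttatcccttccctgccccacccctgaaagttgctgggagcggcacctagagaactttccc
The Sptlc1 stretch held the ETS core on both strands, a CCAAT box and a GC box. The first start of Sgms1 held a GC box and 19 CpG, and its internal start a CCAAT box and 8 CpG. None of the 8 motifs stood in the Sgms2 stretch shown, which had 13 CpG. A further start of Sgms2, at position 131490230 and covered in the same 3 lists, lay closer to the summits, at 17, 156 and 168 bp in the DN3 control, DN3 knockout and naive knockout against 413, 274 and 262 bp for the start shown. Its 250 upstream bases, not shown, held 3 GC boxes, 1 sterol part and 36 CpG. Among all starts the ETS core stood in 9.08% of stretches of this length, the CCAAT box in 35.6%, the GC box in 43.1%, the E-box in 6.70%, the RUNX motif in 12.2%, the sterol part in 4.41%, the NRF1 part in 4.0% and the YY1 part in 2.6%. At the 11 starts of these genes covered in all 4 lists, 9 held a GC box, against 64.1% of all starts so covered. A match is a description of the letters and not of a bound factor.

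Serine palmitoyltransferase, the rate-limiting enzyme of the pathway, is built from the subunits encoded by Sptlc1 and Sptlc2. Sptlc1 (gene ID 268656, chr13:53332748-53377417) had the highest start-site folds of the 10 genes, where the fold is the authors' deposited value and divides the fragments at the summit by the background around it. At chr13:53376712-53377856 these were 14.2 in the DN3 control, 14.6 in the DN3 knockout, 14.6 in the naive control and 17.5 in the naive knockout, from 191, 192, 328 and 291 fragments. The naive knockout was highest, and its Poisson 95% interval for counting error, 15.6 to 19.7, overlapped those of the other 3 libraries. A region 20.7 kb into the gene, chr13:53356102-53357181, ran the other way, with folds of 14.0 and 11.9 in DN3 cells against 6.21 in the naive control and 9.46 in the naive knockout. Another near the far end of the gene, chr13:53333668-53334604, was listed in DN3 cells alone, with folds of 12 and 11.7. The open start of Sptlc1 was thus common to the cell types, while its regions inside the gene were stronger or listed only in DN3 thymocytes.

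Sptlc2 (gene ID 20773, chr12:87305058-87388355) had 3 regions. Its start-site region, chr12:87387306-87388846, had folds of 10.5, 10.7, 10.5 and 11.8 from 450, 452, 763 and 608 fragments, the most fragments at a start among the 10 genes in each list. A region past the end of the gene, chr12:87298967-87300831, also overlaps Ism2 and had folds of 7.98, 7.16, 8.67 and 8.88. The remaining region, inside the gene at chr12:87329895-87330301, was weak and listed in DN3 cells alone, with folds of 3.15 and 3.29 from 17 fragments each.

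The ceramide synthases differ in the acyl chain they prefer. CERS2 uses very long chains, CERS4 long chains, and CERS5 and CERS6 mainly the palmitoyl chain. Cers2 (gene ID 76893, chr3:95314771-95323599) is a short gene, with 1 region in all 4 lists and 3 in DN3 cells alone. At its start, chr3:95314767-95316357, which also overlaps Anxa9, the folds were 7.77, 7.31, 9.96 and 10.7, so both naive libraries stood above both DN3 libraries, with intervals of 6.92 to 8.70 and 6.48 to 8.21 in DN3 cells and 9.11 to 10.9 and 9.78 to 11.8 in naive cells. The strongest DN3-only region, chr3:95317366-95317798, lay 2.39 kb past the start and had folds of 4.0 and 4.05. At the end of the gene, chr3:95322695-95323373 was listed at 6.95-fold in the DN3 control and at 3.64-fold in the DN3 knockout, from 52 and 25 fragments, the largest drop between the DN3 genotypes among these regions (log2 ratio −0.93).

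Cers4 (gene ID 67260, chr8:4492818-4529603) shared only its start-site region among the 4 lists. The folds at chr8:4492804-4494301 were 9.17, 9.83, 11.1 and 12.1, from 111, 122, 304 and 222 fragments. A region 22.9 kb into the gene, chr8:4515774-4516768, was listed in both DN3 libraries with folds of 10.8 and 7.85 and in the naive knockout with 10.3, from 47 fragments, but not in the naive control. This was the strongest member peak listed in 1 naive genotype alone, with a −log10 q of 33.3. A list names no value below its threshold, so the level in the naive control is not known. Cers4 had no region listed in 1 cell type alone in both genotypes.

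Cers5 (gene ID 71949, chr15:99735592-99772515) had nearly the same start-site fold over the local background in each library. At chr15:99771559-99773010 it was 10.3, 10.1, 10.9 and 11.1, from 300, 271, 698 and 519 fragments. Over the genome-wide background of each library this region stood higher in naive cells, with log2 ratios of naive over DN3 of 1.12 and 1.17. The region of highest −log10 q, chr15:99724414-99726271, lies in the flank and overlaps the neighbouring genes Gpd1 and Cox14, with folds of 10.4, 11.5, 11.9 and 12. Inside the gene, chr15:99754213-99755082 was listed in DN3 cells alone with folds of 7.15 and 7.59. A flanking region that overlaps Lima1, chr15:99778073-99778999, had a lower fold in the naive control (4.25) than in the DN3 control (7.54), the DN3 knockout (6.58) or the naive knockout (7.09).

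Cers6 (gene ID 241447, chr2:68861145-69114284) is a long gene, close to Sgms1 in length (253 kb against 267 kb), and served as a comparison within the pathway. It had 19 regions, of which 9 were in all 4 lists, 5 in DN3 cells alone (26.3%, beside 26.6% of all regions near genes) and 0 in naive cells alone (beside 4.77%). Its start-site region, chr2:68860939-68862859, had folds of 9.67, 8.99, 10.5 and 10.9, with overlapping intervals. A region 46.7 kb into the gene, chr2:68907589-68908748, had the highest −log10 q outside the start in DN3 cells, 161 and 190 against 166 and 154 at the start, with folds of 11.8 and 13.0 there and 14.0 and 13.7 in naive cells. In the naive lists the highest −log10 q outside the start stood at chr2:68957721-68960796 in the control (213) and at chr2:68931476-68933187 in the knockout (111). The DN3-only region of highest −log10 q, chr2:69108890-69110314, near the far end of the gene, had folds of 8.92 and 8.28. At chr2:69002154-69003169 the DN3 folds of 13.5 and 12.6 stood against 4.41 and 6.23 in naive cells, the widest gap toward DN3 cells outside Sgms1 among regions in all 4 lists, in the controls and in the knockouts.

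**Figure D2:**
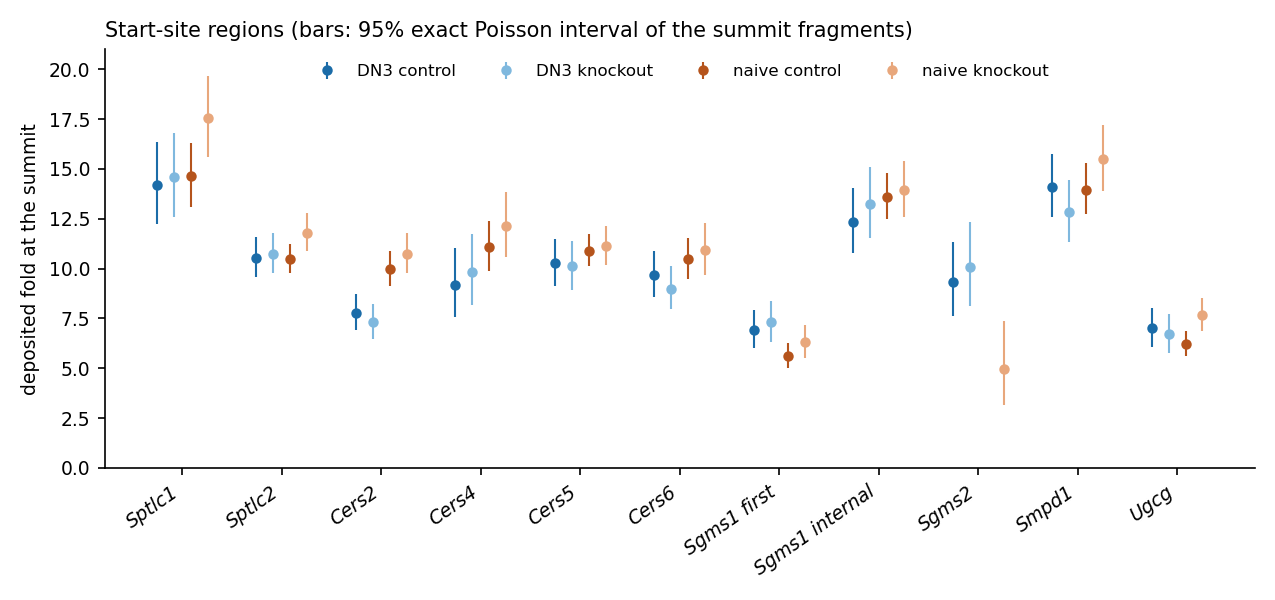
Deposited fold at the summit (y axis, from 0) of each start-site region (x axis) in the 4 libraries, with 95% exact Poisson intervals of the summit fragments, which cover counting error only. Sgms2 has no point in the naive control and a fold of 4.94 in the naive knockout, against 9.33 and 10.1 in DN3 cells.

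Sphingomyelin synthases move a phosphocholine head group onto ceramide. SGMS1 works in the Golgi, and SGMS2 at the plasma membrane as well. Sgms1 (gene ID 208449, chr19:32122727-32389885, minus strand) had 44 of the 100 regions. Its peaks numbered 28 in the DN3 control, 26 in the DN3 knockout, 39 in the naive control and 40 in the naive knockout, and covered 22.8, 21.5, 37.9 and 32.2 kb. Both naive libraries thus had more peaks over more of the gene than both DN3 libraries. Of the 44 regions, 23 were in all 4 lists, 12 in naive cells alone, 2 in DN3 cells alone and 7 in another pattern. Those in all 4 lists made up 52.3%, beside 44.2% of all regions near genes. Naive-only regions, on which Sgms1 was selected, made up 27.3%, beside 4.77%, and DN3-only regions 4.55%, beside 26.6%. Sgms1 and Ugcg were the members with more naive-only than DN3-only regions.

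The annotation gives Sgms1 4 starts, and their regions behaved differently. The outermost pair of starts shared 1 region, chr19:32386988-32389780, with folds of 6.93 and 7.30 in DN3 cells and 5.59 and 6.29 in naive cells. Over the genome-wide background of each library this order turned, with log2 ratios of naive over DN3 of 0.50 and 0.47. An internal start 177 kb further along the gene lay in chr19:32210116-32211483, with folds of 12.3, 13.2, 13.6 and 13.9 and −log10 q of 162, 161, 413 and 299. Its summit was within 31 bp of the annotated start in each library. The internal start was thus the stronger of these regions in all 4 libraries. The remaining start, between them, was covered in none.

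The 12 naive-only regions lay between 50.7 and 268 kb from the first start, 7 of them before the internal start and 5 past it. Going along the gene, chr19:32337461-32338078 had folds of 7.81 (naive control) and 10.9 (naive knockout), from 60 and 66 fragments. It was followed by chr19:32330031-32330747 with folds of 4.67 and 5.19 and chr19:32328016-32328599 with 3.05 and 3.59. At chr19:32324857-32325675 the folds were 6.15 and 7.85, from 164 and 155 fragments. These 4 were neighbours in a stretch where the DN3 lists held no peak. Closer to the internal start, chr19:32244813-32245655 had folds of 5.23 and 7.52, chr19:32223717-32224515 had 7.42 and 6.29, and chr19:32216616-32217559 had 9.27 and 7.08, the last from 71 and 37 fragments.

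Past the internal start, chr19:32202060-32202986 had low folds of 2.72 and 3.11 although its summit held 108 and 83 fragments. The region with the most fragments of the 12 was chr19:32181408-32182642, with 288 and 192, folds of 5.36 and 5.38 and −log10 q of 110 and 73.6. Then came chr19:32166568-32167422 with folds of 5.63 and 5.10 and chr19:32140047-32141146 with 4.51 and 3.76. The last, chr19:32120616-32121088, lay past the end of the gene and had 19 and 22 fragments, not far above the fewest that any DN3 peak held. Over the 12 regions the median fold was 5.30 in the naive control and 5.28 in the naive knockout, with medians of 65 and 50 fragments. Over all 3261 naive-only regions near genes the medians were 4.58 and 5.10, with 51 and 41 fragments.

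**Figure D3:**
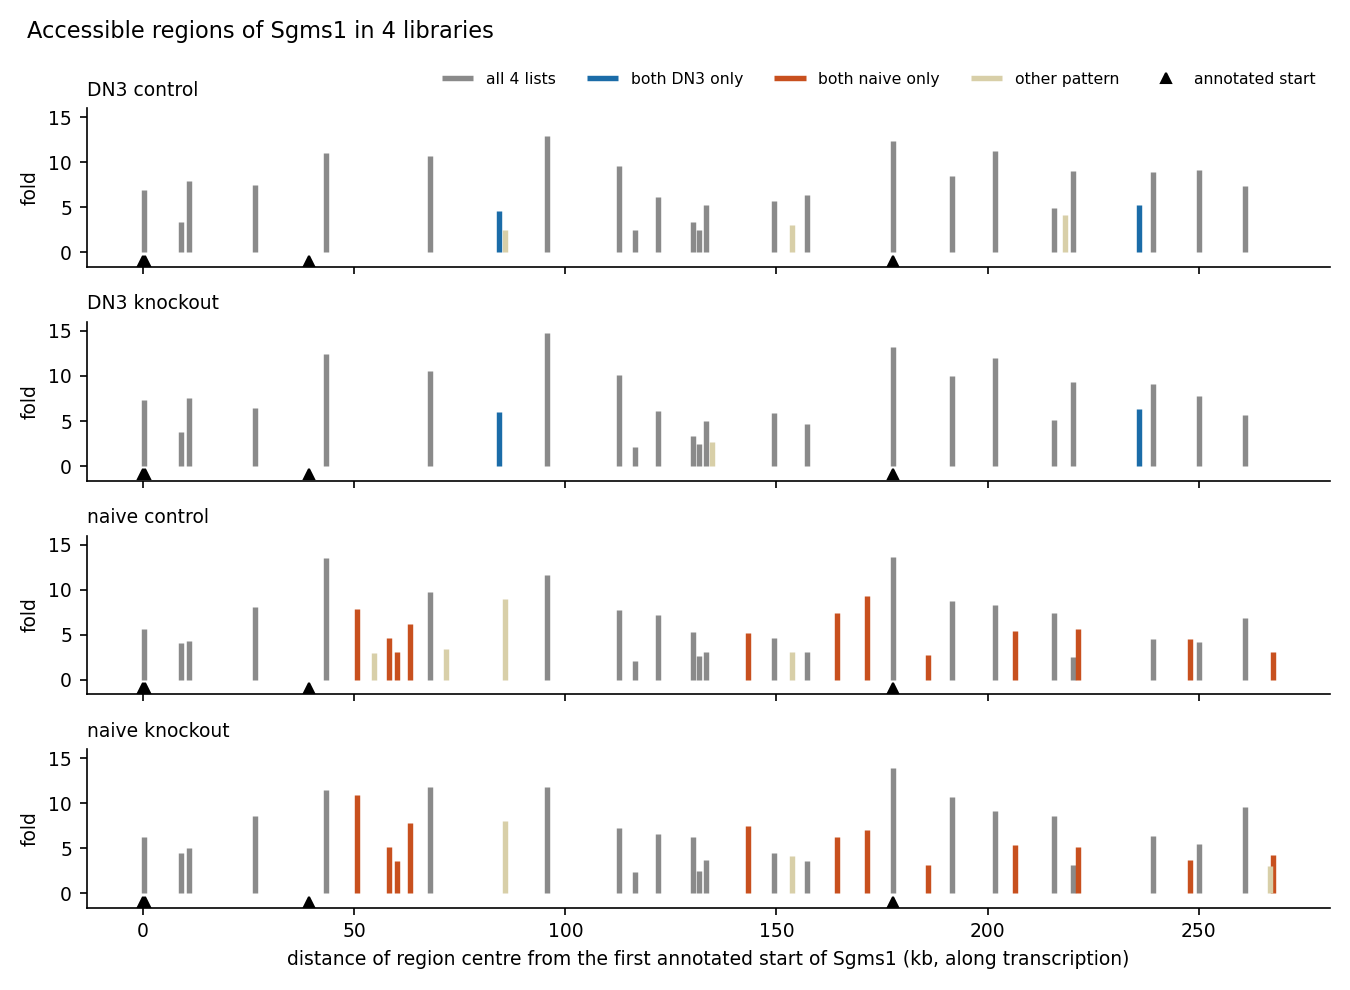
Deposited fold (y axis) of each Sgms1 region against its distance from the first annotated start in kb (x axis), with 1 panel per library, colours for the lists a region was called in and triangles for annotated starts. The 12 naive-only regions lie between 50.7 and 268 kb, and the region at the internal start stands at 12.3 to 13.9 in the 4 libraries.

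Other regions of Sgms1 were listed in DN3 cells too but with far fewer fragments. At chr19:32302253-32303453 the naive folds were 8.97 and 8.0, from 134 and 75 fragments, and the DN3 control had a weak peak of 13 fragments (fold 2.45), with none in the DN3 knockout. The region chr19:32196152-32197864, 191 kb from the first start, held 79 and 93 fragments in DN3 cells and 520 and 403 in naive cells. Its local folds nonetheless were nearly alike, at 8.52, 10.04, 8.76 and 10.7, and the local background there was 8.39 and 8.37 fragments in DN3 cells and 58.5 and 36.9 in naive cells. In this stretch the cell types therefore differed in fragments and in local background together. Over the 23 Sgms1 regions in all 4 lists the median summit held 61, 59, 175 and 124 fragments. Over all 30191 such regions near genes it held 146, 135, 159 and 127.

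In DN3 cells the Sgms1 region of highest −log10 q was chr19:32274999-32276418, with 206 and 222. Its local folds were 9.56 and 10.1 against 7.70 and 7.22 in naive cells, while over the genome-wide background it stood higher in naive cells (log2 ratios of 0.69 and 0.29). The strongest region outside the starts in the naive control, chr19:32292054-32293596, had local folds of 13.0, 14.8, 11.6 and 11.8. Over the genome-wide background it too stood higher in naive cells (log2 ratios of 1.38 and 0.83). Listed in DN3 cells alone were chr19:32152586-32152946, with folds of 5.31 and 6.36, and chr19:32304046-32304613, with 4.54 and 6.03. Regions that leaned to DN3 cells by local fold or by list thus stood among those that leaned to naive cells.

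Among the 406 genes with at least 20 joint regions, Sgms1 ranked 4 by its number of naive-only regions, where the median gene had 1 and the highest, Inpp4b, had 28. By share it ranked 19, with 27.3% against a median of 4.55%, and 21 genes including Sgms1 had a share at least as high. Sgms1 was selected on such regions, so these ranks describe it and are no test. The pattern was high for a large gene but shared by others. The 5 genes whose split over the 15 possible list patterns was most like that of Sgms1 were Bcl2 (likeness 0.909, where 1 means identical shares), Tox (0.884), Bach2 (0.878), Cdk19 (0.874) and Ubash3b (0.865). Their naive-only shares ran from 21.7% to 28.1%. With the lists kept to the same number of peaks, 23 of 39 Sgms1 regions (59.0%) were naive-only and 0 were DN3-only, while the other 9 genes had 5 of each in 40 regions.

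**Figure D4:**
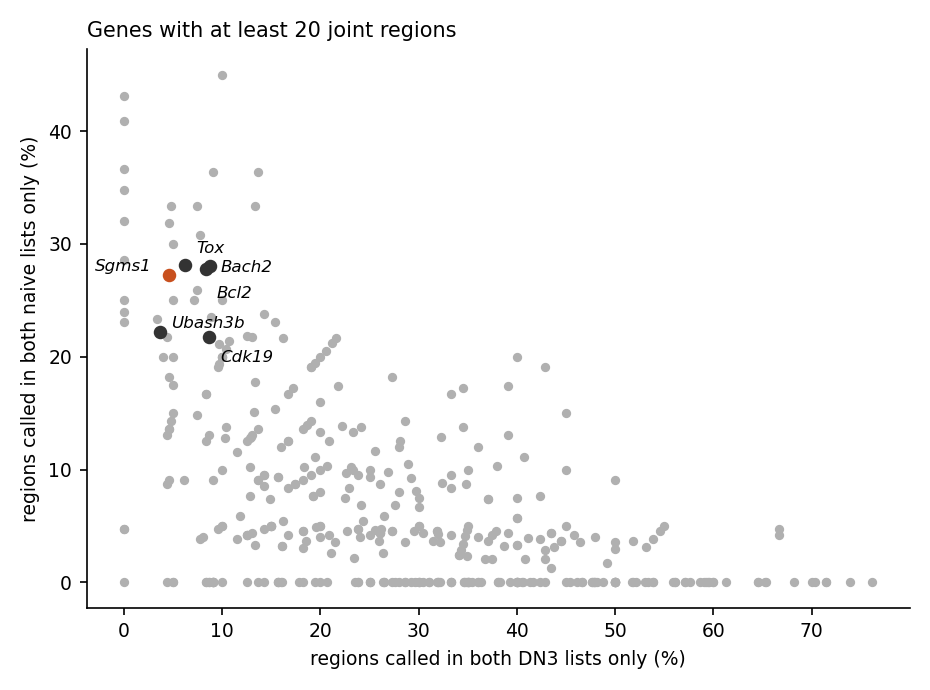
Share of each gene's regions called in both naive lists only (y axis, percent) against the share called in both DN3 lists only (x axis, percent), with 1 point for each of 406 genes with at least 20 joint regions. Sgms1 (orange) stands at 27.3% and 4.55%, near the 5 genes of most like pattern (black, named).

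Sgms2 (gene ID 74442, chr3:131318985-131491443, minus strand) had the opposite contrast at its start. The region chr3:131489733-131491166 had folds of 9.33 in the DN3 control and 10.1 in the DN3 knockout, from 98 and 91 fragments. It was absent from the naive control list and had a fold of 4.94 in the naive knockout, from 22 fragments, with a −log10 q of 8.94. The start of Sgms2 was thus clearly called in DN3 cells and weak or not listed in naive cells. Near the far end of the gene, chr3:131329945-131330847 had folds of 6.65, 5.28, 6.01 and 7.12, and chr3:131334179-131335616 had 5.04, 6.07, 6.15 and 6.16. These regions, unlike the start, were called in all 4 lists, with more fragments in naive cells (202 and 160, and 217 and 146) than in DN3 cells (112 and 86, and 88 and 107). A region 16.8 kb from the first start, chr3:131474436-131474886, was listed in DN3 cells alone, with folds of 6.12 and 5.48.

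Smpd1 (gene ID 20597, chr7:105554360-105558389) encodes the lysosomal acid sphingomyelinase, which releases ceramide from sphingomyelin. Its start-site region, chr7:105553943-105555060, had folds of 14.1, 12.8, 14.0 and 15.5 from 314, 271, 464 and 348 fragments. The intervals of the DN3 control and the naive control overlapped, as did those of the DN3 knockout and the naive knockout. The other region, chr7:105559142-105559490, overlaps Apbb1 and was listed in DN3 cells alone with folds of 3.26 and 3.0.

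Ugcg (gene ID 22234, chr4:59189507-59222833) encodes glucosylceramide synthase, which commits ceramide to most glycosphingolipids. At its start, chr4:59188616-59191209, the folds were 7.0, 6.7, 6.2 and 7.67. Inside the gene, chr4:59204514-59206376 had higher folds in DN3 cells, 9.79 and 10.5 against 5.76 and 5.24. Over the genome-wide background its lean to DN3 cells was smaller, with log2 ratios of naive over DN3 of −0.16 and −0.59. At chr4:59199099-59200144 the local folds were 9.16 and 9.19 against 6.54 and 7.28, but over the genome-wide background this region stood higher in naive cells (log2 ratios of 0.48 and 0.35). Between them and the end of the gene, chr4:59214559-59215309 was listed in naive cells alone, with folds of 7.83 and 8.65 from 73 and 64 fragments. A weaker naive-only region past the end, chr4:59223076-59224400, had folds of 3.92 and 2.99. Ugcg thus held regions that leaned to either cell type.

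The comparison between cell types at shared regions depended on the background in the fold. At the 53 member regions called in both controls, the median log2 ratio of naive over DN3 folds was −0.01, beside −0.02 over all regions near genes. At the 55 called in both knockouts it was 0.12, beside 0.09. A ratio of at least 1.5 toward naive cells was seen at 3 of 53 regions in the controls, beside 8.57% of all, and at 3 of 55 in the knockouts, beside 12.1%. Toward DN3 cells it was 10 of 53, beside 13.5%, and 4 of 55, beside 10%. With fragments set against the genome-wide background of each library in place of the local one, the medians became 0.68 and 0.49, beside 0.22 and 0.30 over all regions. Then 29 of 53 and 25 of 55 member regions were at least 1.5 times higher in naive cells, beside 30.6% and 30.3%, and 6 of 53 and 5 of 55 lower, beside 23.6% and 19.5%. Sgms1 had medians of 0.86 and 0.94 on that scale and of −0.13 and −0.11 on the local one, so its direction turned with the background. In bulk libraries, more cells with an open region and more cutting per cell cannot be told apart.

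Of the 51 member regions in all 4 lists, 22 had a higher local fold in naive cells in both genotypes, 16 a lower one in both, and 13 differed in sign between the genotypes. These were 43.1%, 31.4% and 25.5%, beside 43.5%, 32.5% and 24.0% of all 30191 regions near genes called in all 4 lists. With the genome-wide background the counts were 36, 11 and 4, or 70.6%, 21.6% and 7.84%, beside 56.9%, 30.7% and 12.3%. These counts describe regions of few genes, and regions of 1 gene share its surroundings and its libraries.

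**Figure D5:**
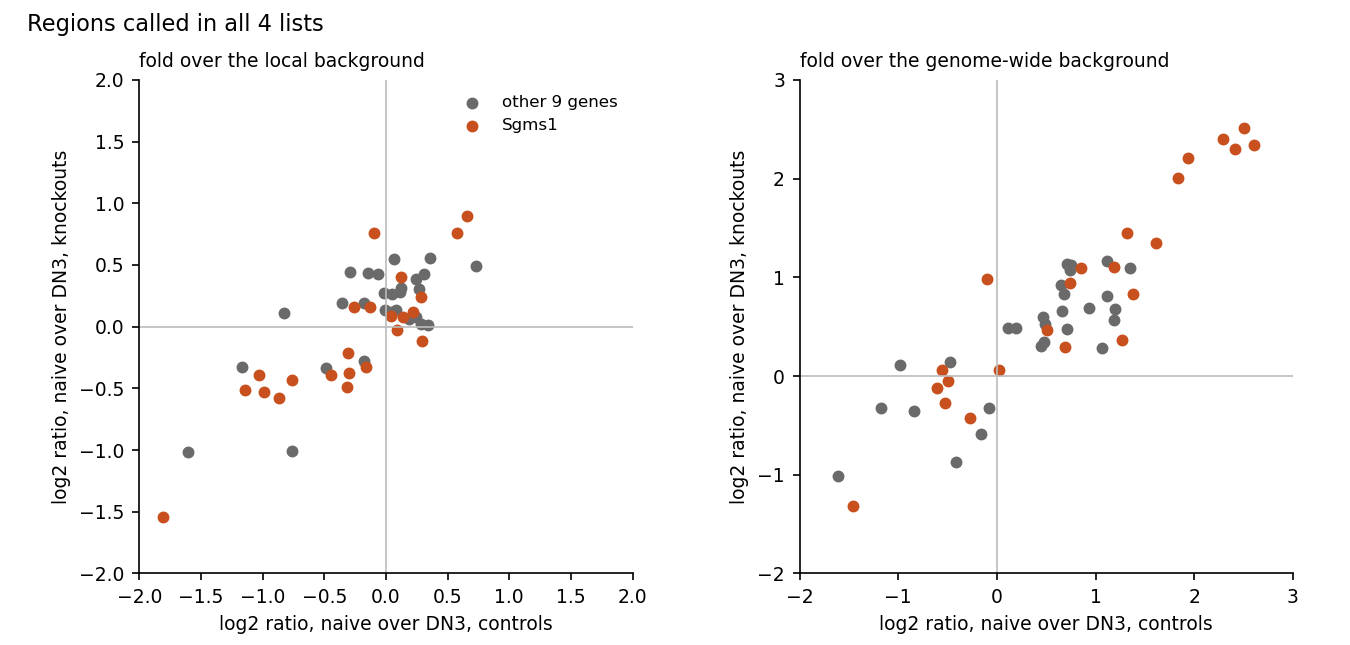
Log2 ratio of naive over DN3 folds in the knockouts (y axis) against the controls (x axis) for the 51 member regions in all 4 lists, with the fold over the local background (left) and over the genome-wide background of each library (right). On the left the Sgms1 regions (orange) have 7 of 23 higher in naive cells in both genotypes, beside 43.5% of all regions near genes, and on the right 16 of 23, beside 56.9%.

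Few peaks of these genes were listed in 1 genotype alone. In DN3 cells 7 of 77 control peaks had no counterpart in the knockout, or 9.09% beside 10.4% over all peaks, and 8 of 77 knockout peaks had none in the control, or 10.4% beside 9.48%. In naive cells it was 2 of 71 control peaks, or 2.82% beside 5.77%, and 5 of 77 knockout peaks, or 6.49% beside 12.4%. The peaks of 1 genotype were mostly weak. Their −log10 q had a median of 8.38 in the DN3 control and 4.90 in the DN3 knockout, against 39.1 and 37.2 for member peaks found in both. The strongest in the DN3 control was an Sgms1 peak, chr19:32170097-32170402, at 20.2 with a fold of 4.17. Next were a Sgms2 peak, chr3:131347952-131348204 (12.2), and a Cers2 flank peak that overlaps Anxa9, chr3:95311073-95311330 (10.04). The strongest in the DN3 knockout was a Cers6 peak, chr2:68916305-68916723 (8.09), and 4 of the 8 lay in Cers6. In naive cells the control alone had 2 Sgms1 peaks, chr19:32316657-32317148 (14.6) and chr19:32333712-32334165 (6.38). The naive knockout alone had the Cers4 region named above and a weaker one, chr8:4507518-4507819 (12.3), beside the Sgms2 start.

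At regions called in both genotypes the folds were close. The median log2 ratio of knockout over control was −0.01 at 68 member regions in DN3 cells, beside −0.01 over all regions near genes, and 0.15 at 68 regions in naive cells, beside 0.13 over all. In DN3 cells 0 of 68 were at least 1.5 times higher in the knockout, beside 0.551%, and 2 of 68 were lower, beside 1.46%. Those were the Cers2 region at the gene end and a Cers6 region, chr2:68937342-68937693, which was listed at 5.65-fold in the control and at 3.15-fold in the knockout. In naive cells 2 of 68 were higher in the knockout, beside 4.92%, and 0 of 68 lower, beside 0.412%. These were the inner Sptlc1 region and the Cers5 flank region near Lima1, with log2 ratios of 0.61 and 0.74. With the genome-wide background the naive median fell to 0.01, beside 0.08 over all regions, so a general shift between these genotypes in naive cells depended on the background used. On that scale 4 of 68 were higher and 1 of 68 lower, beside 7.01% and 0.846%, and in DN3 cells 0 and 2 of 68, beside 0.692% and 2.15%.

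The rest of the pathway was described by a list of 39 further genes, all matched in the annotation, 4 of them by gene ends for want of an annotated start sequence. A start-site region was called at 34 in the DN3 control, 33 in the DN3 knockout, 29 in the naive control and 28 in the naive knockout, or 87.2%, 84.6%, 74.4% and 71.8%, beside 66.7%, 66.4%, 57.2% and 58.8% of all protein-coding genes. In all 4 lists 28 of the 39 were called. The share of all genes with each such pattern of lists is not given here, so the pattern counts are a description only. The regulators of serine palmitoyltransferase Ormdl1, Ormdl2 and Ormdl3 were among those, with folds of 15.1, 16.3, 14.1 and 15.2 at Ormdl1. So were Kdsr, which reduces the newly made base, with 10.7, 11.3, 10.5 and 10.9, and Cert1, the ceramide transfer protein that carries ceramide to the Golgi, with 11.1, 11.3, 12 and 11.1. Degs2, a dihydroceramide desaturase, was called in all 4 lists but with folds of 8.81 and 8.14 in DN3 cells and 5.48 and 5.27 in naive cells, from 434, 359, 56 and 41 fragments. Cers1, a further ceramide synthase, had folds of 9.21 and 10.3 in DN3 cells, 2.62 in the naive control and no region in the naive knockout. Called in both DN3 lists and no naive list were 4 genes, among them Sptssb, a small subunit of serine palmitoyltransferase (folds of 6.29 and 5.66), Ugt8a, which makes galactosylceramide (6.64 and 5.11), and Spns2, a transporter of sphingosine 1-phosphate (3.30 and 4.13). None of the 39 was called in naive cells alone. Sptlc3, Cers3, Asah2 and Acer1 were among the 5 called in no list. The calls that differed between cell types thus stood on the DN3 side, where the share over all genes was higher too.

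The 10 kb window set which regions were counted. The outermost regions inside it lay 8.45 kb from Ugcg, called in all 4 lists with folds of 4.98, 4.5, 5.2 and 6.58, and 9.32 kb from Cers5, the region over Gpd1 and Cox14 given above. The nearest outside lay 11.1 kb from Sptlc2, chr12:87399459-87399857, and 11.1 kb from Cers6, chr2:69125425-69125814, both called in DN3 cells alone, with folds of 4.89 and 5.30 and of 5.32 and 7.21. Of the 100 regions 7 overlap another annotated gene and may belong to it. Exons and introns were not annotated here.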

How the data were processed

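ATAC-seq peak lists of 4 mouse libraries, 1 per genotype and cell type, were used, and groups were taken from the labels. Per the submitters' processing notes reads were handled with Trimmomatic, BWA and MACS2 on mm10. For versions, settings, duplicates and any Tn5 shift, the sources used here give nothing. For each peak the authors deposited a fold, the ratio of summit pileup to local background, a −log10 p and −log10 q, a score that was not used, and the summit position. These are values within 1 library. The −log10 values grow with its depth, and the fold is lower where the local background is higher.

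The fragments at each summit were recovered as a whole number from the fold and the −log10 p for 100% of peaks, within a tolerance of 0.05. PCR duplicates may be among them, so the Poisson 95% intervals cover counting error only. Peaks on chromosomes 1 to 19 and X were merged at 1 bp of overlap. Start sites came from RefSeq GRCm38.p6, and a peak within 1 kb counted. A gene without an annotated start sequence was taken by its ends. Where a region held several peaks of a library, the values of the peak with the highest −log10 q were used. Steps were tested on simulated data and run in Python 3.11.15 with pandas 2.3.3, numpy 2.4.6 and scipy 1.17.1.

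The members, the pathway list, the marker lists and the rules were chosen with earlier results of these data known. The rule named, per gene, the start-site region, the strongest other region of each list by −log10 q, and the strongest regions of 1 cell type or genotype, and for Sgms1 all naive-only regions. Further regions, the examples from the pathway list and Inpp4b were chosen after their values were seen. Of CD8, NK, erythroid and thymic epithelial markers 2 of 2, 1 of 2, 2 of 3 and 1 of 3 were called in each DN3 list, and 1, 0, 2 and 1 in each naive list, and their part in the results was not tested. A further B cell marker of the list is not reported here. The alternatives were 2 stricter −log10 q limits, a larger overlap, lists of equal length, other windows, peaks over the start base and the genome-wide background.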

Additional observations from a re-analysis of the deposited data

How the results depend on the processing

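Of 92 values recomputed under 8 alternative settings, 73 moved by no more than 1.5 times (counts) or 0.1 (log2 medians), and 19 moved further. Each list was also kept to the same number of strongest peaks. Then 5 of 79 member regions were called in DN3 cells alone and 28 in naive cells alone, 23 of them at Sgms1. Over all regions near genes the shares were then 14.9% and 13.8%. Member peaks of 1 genotype then numbered 3 in the DN3 control, 1 in the DN3 knockout, 4 in the naive control and 3 in the naive knockout, and the median log2 ratio of naive over DN3 control was −0.13. With 50 kb on either side, 82 of 166 member regions were called in all 4 lists and 34 in DN3 cells alone. With 10 kb it was 51 and 15 of 100. In the wider window 13 peaks of the DN3 control and 4 of the naive control lacked a counterpart, of totals not given here. A −log10 q of at least 5 left 5 peaks of the DN3 knockout alone and 4 of the naive control alone, and a limit of 10 left 2 and 5. For the wider window and for all these counts of peaks of 1 genotype, the share over the genome is not given here. Whether the members moved differently from other genes under those settings is therefore not known. With the genome-wide background the median log2 ratios were 0.0054 for naive knockout over naive control, 0.68 for naive over DN3 control and 0.49 for naive over DN3 knockout. The cause of these moves was not tested, beyond the fewer or further peaks each setting takes in. No paired analysis was possible because the groups share fewer than 2 replicate numbers and no result comes from a test. Weak regions near the lowest listed fragment count are limited by depth, most so in the naive knockout.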
